A study of Mus musculus with 24 samples.

Results

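TRBV1, TRBV2, TRBV3, TRBV4 and TRBV5 are the V segments of the mouse T cell receptor beta (Tcrb) locus that lie farthest from the D and J segments. They were chosen by name and are 5 of the 22 V segments listed in 6 Tcrb repertoire tables. These comprise 3 tables from wild-type mice and 3 from mice lacking Satb1, a chromatin-organising nuclear protein of thymocytes. All mice were C57BL/6 and 4 to 12 weeks old, and total RNA was taken from thymocytes. The sample labels give the mutant genotype as Satb1-/-, whereas the design text names a conditional knockout, Satb1cKO, and the sources used here do not name its Cre line. Satb1 and cell type markers are not among the measured features, so neither the genotype nor the cell type could be checked in these tables. The labels do not say that libraries of a group came from separate mice, so each p-value measures only the spread between the libraries. Each library gave a table of V segments against J segments in percent of its Tcrb assignments. No counts are given, and the depth behind each value was not reconstructed from the percentages.

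A beta chain gene is assembled in developing thymocytes by joining a D segment to a J segment and then a V segment to the DJ product. The J segments lie in 2 clusters: the Trbj1 cluster follows Trbd1 and is nearer to the V segments, and the Trbj2 cluster follows Trbd2. Each V segment encodes the first variable part of the chain, and its 3' end contributes the start of the third complementarity-determining region, the loop that contacts peptide. Joining V segments that lie far from the D and J segments depends on the contraction of the locus into loops.

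The annotation (GENCODE release M21, GRCm38) places the 5 segments on the plus strand of chromosome 6 as T cell receptor V genes of 2 exons each. TRBV1 covers chr6:40891229-40891885 and ends 641 kb before the start of Trbd1. TRBV2 covers chr6:41047340-41047995, 155 kb beyond TRBV1, and ends 485 kb before Trbd1. The next 3 follow closely: TRBV3 at chr6:41048290-41048828, TRBV4 at chr6:41059394-41059886 and TRBV5 at chr6:41062332-41062803, ending 484, 473 and 470 kb before Trbd1. TRBV2 and TRBV3 are separated by 294 bases, and TRBV2 to TRBV5 together span 15.5 kb. In the order of the 22 listed V segments from the 5' end of the locus they hold places 1 to 5, so the position of the group as distal holds in this annotation. Between TRBV5 and the next listed segment, TRBV12-1, the annotation has 6 further Trbv genes that the tables do not list.

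The last 45 bases of exon 2 show the end of each V segment that is joined, with the last 12 bases in capitals, since these stand next to the junction. They are read 5' to 3' from the GENCODE M21 transcripts.
TRBV1 (chr6:40891841-40891885): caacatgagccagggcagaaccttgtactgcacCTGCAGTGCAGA
TRBV2 (chr6:41047951-41047995): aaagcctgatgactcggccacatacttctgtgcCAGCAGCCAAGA
TRBV3 (chr6:41048784-41048828): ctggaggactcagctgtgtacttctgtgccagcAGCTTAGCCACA
TRBV4 (chr6:41059842-41059886): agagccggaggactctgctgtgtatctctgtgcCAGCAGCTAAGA
TRBV5 (chr6:41062759-41062803): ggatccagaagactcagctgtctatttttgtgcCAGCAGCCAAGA
TRBV2 and TRBV5 were identical in all 12 capital bases, and TRBV4 matched each of them in 11 of 12. All 5 shared the same base at 2 of the 12 positions, counted from the 3' end without gaps. The bases that open the capitals of TRBV2, TRBV4 and TRBV5 recur in TRBV3 farther from its 3' end. The capitals of TRBV3 are therefore out of register with theirs, and the count does not compare like positions for TRBV3. Over the whole exon 2 the 10 comparisons between members gave identities from 49.0% to 64.75%, the highest being TRBV2 with TRBV4 and TRBV2 with TRBV5. No member therefore has a near-identical copy within the group, and the method that assigned segments is not stated in these sources.

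The J segments that recur below are printed in full, with the first 12 bases, those next to the junction, in capitals. TRBJ2-7 and TRBJ1-5 were the most and least used J segments of each member by mean over the 6 libraries, and TRBJ1-2 and TRBJ2-2 belong to the V-J pairs described further on.
TRBJ1-2 (chr6:41534001-41534048): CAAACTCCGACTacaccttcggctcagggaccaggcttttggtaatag
TRBJ1-5 (chr6:41535084-41535133): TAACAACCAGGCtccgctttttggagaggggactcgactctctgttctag
TRBJ2-2 (chr6:41542957-41543007): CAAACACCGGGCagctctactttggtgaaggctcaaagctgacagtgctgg
TRBJ2-7 (chr6:41543810-41543856): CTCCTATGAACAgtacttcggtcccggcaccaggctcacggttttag

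TRBV2 was the member whose share stood higher in the Satb1-/- libraries, from 4.09% ± 0.194 to 6.06% ± 1.16 (SD, n = 3 each). Its wild-type libraries read 4.30%, 4.04% and 3.92% and its Satb1-/- libraries 6.54%, 6.90% and 4.74%. Every Satb1-/- library was above every wild-type library, and replicate 3 was the lowest in both genotypes. On the log2(percent + pseudocount) scale used for all fold changes here, the difference was 0.55 (SE 0.18), with an adjusted p of 0.108 by limma over the 22 V segments. With libraries of equal replicate number treated as a block the SE was 0.13 and the adjusted p 0.0410, so that TRBV2 passed the threshold of 0.05 only in that fit, in a fit with a variance trend (adjusted p 0.0457) and without Satb1-/- replicate 3 (0.72, adjusted p 0.0359).

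The other 4 members did not pass the test of share, with or without the replicate block, and their groups overlapped. TRBV1, the most distal segment, read 3.94%, 3.87% and 3.00% in wild type and 3.72%, 3.48% and 3.11% in Satb1-/- (adjusted p 0.950 by limma). TRBV3 read 6.10%, 7.74% and 7.80% against 5.53%, 10.1% and 6.59%, and its Satb1-/- libraries spread both below and above the wild-type ones (adjusted p 0.992 by limma). TRBV4 and TRBV5 are the members nearest to the D and J segments. TRBV4 read 4.50%, 5.12% and 3.82% in wild type and 3.81%, 5.11% and 3.02% in Satb1-/-, with overlapping groups (log2 fold change -0.19, SE 0.22, adjusted p 0.854 by limma). TRBV4 was lower within each of the 3 replicate numbers, but in number 2 the difference was only -0.0137 percentage points. With the replicate block the SE of TRBV4 was 0.11 and its adjusted p 0.346 by limma. TRBV5 read 7.85%, 6.71% and 11.2% in wild type and 8.00%, 6.64% and 11.8% in Satb1-/- (adjusted p 0.992 by limma).

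Over all 22 V segments none (0%) was called by limma, 3 (13.6%) had an unadjusted p under 0.05 and 4 (18.2%) had groups that did not overlap. Among the 5 members 0 were called, and TRBV2 alone had an unadjusted p under 0.05 or groups that did not overlap. With the replicate block 3 of the 22 (13.6%) were called, TRBV2 being the 1 member among them. A share in RNA can move through fewer cells that use a segment or through less RNA per cell, and these cannot be told apart here. The rise of 1 share also lowers the others, since each table sums to 100%.

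**Figure D1:**
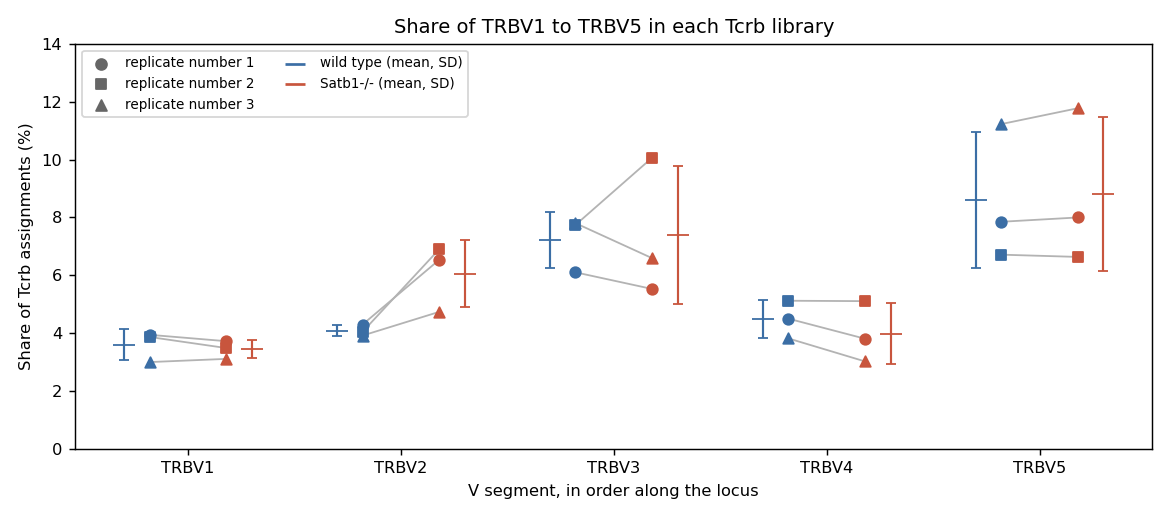
Share of TRBV1 to TRBV5 in percent of Tcrb assignments (y axis) in each library, with the V segments in their order along the locus (x axis). Symbols mark replicate numbers, grey lines join libraries of equal number, and the bars give the mean and SD of 3 wild-type (blue) and 3 Satb1-/- (red) libraries. TRBV2 is the member whose groups do not overlap, and for TRBV5 the lines run almost level, from 11.2% to 11.8% in number 3 and from 6.71% to 6.64% in number 2.

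Ordered by mean wild-type share, TRBV5 (8.60% ± 2.35) stood first among the members, then TRBV3 (7.22% ± 0.964), TRBV4 (4.48% ± 0.652), TRBV2 (4.09% ± 0.194) and TRBV1 (3.60% ± 0.524). Neighbours in this order differed by less than the larger of their SDs except TRBV3 and TRBV4. In Satb1-/- the order was TRBV5 (8.81% ± 2.66), TRBV3 (7.40% ± 2.37), TRBV2 (6.06% ± 1.16), TRBV4 (3.98% ± 1.05) and TRBV1 (3.44% ± 0.308). Among all 22 V segments TRBV2 held rank 12 by mean in wild type and rank 6 in Satb1-/-, while TRBV1 held rank 14 in both. Shares did not follow position within the group: TRBV3, which begins 294 bases after TRBV2, was higher than TRBV2 in every library but Satb1-/- replicate 1. Together the 5 members made up 28.0% ± 1.59 of assignments in wild type and 29.7% ± 2.33 in Satb1-/-, values given without a test.

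Most members varied more between replicate numbers than between genotypes. TRBV5 averaged 7.93%, 6.67% and 11.5% over both genotypes in numbers 1, 2 and 3, a span of 4.83 percentage points, while its Satb1-/- minus wild-type difference within a number was 0.149, -0.0779 and 0.549 percentage points. For 4 of the 5 members, all but TRBV2, the span over numbers exceeded the largest difference within a number, and this was so for 8 of the 17 other V segments. Wild-type libraries had TRBV3-to-TRBV5 ratios of 0.777, 1.15 and 0.695 and Satb1-/- libraries 0.691, 1.52 and 0.560, so TRBV3 exceeded TRBV5 only in the libraries numbered 2. The labels do not say what a shared number stands for, and its part in these shares was not tested beyond the block.

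TRBV4 and TRBV24 had the closest course over the 6 libraries, with a Pearson r of 0.997 between their log2 shares. TRBV24 is annotated as a V pseudogene and was the least used of the 22 V segments, at 0.132% to 0.479% of a library. The highest r of the other members was 0.880 for TRBV3 with TRBV16, 0.776 for TRBV1 with TRBV23, 0.705 for TRBV2 with TRBV20 and 0.679 for TRBV5 with TRBV13-2. No member had another member as its most alike in share. These 6 points share libraries, replicate numbers and a fixed sum, and the values are descriptions only.

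Within each member the share of assignments joined to the Trbj2 cluster (J2) was lower in Satb1-/- than in wild type in all 3 replicate numbers. The ratio of J2 to J1 was therefore lower in each member too, but among the members its fall was called only in TRBV1 and TRBV4. TRBV1 had a J2 share of 67.7%, 71.8% and 73.0% in wild type and 59.7%, 54.2% and 63.3% in Satb1-/-. All 3 Satb1-/- libraries lay below all 3 wild-type libraries, with Satb1-/- replicate 2 the lowest. The J2-to-J1 ratio of TRBV1 went from 2.45 ± 0.316 to 1.46 ± 0.269 (SD, n = 3 each), a log2 fold change of -0.75 (SE 0.19, limma adjusted p 0.00689), and it passed the threshold in every alternative fit. This was the largest fall among the 22 V segments, but by less than its SE. TRBV20 (-0.735, SE 0.176) and TRBV17 (-0.708, SE 0.172), which are not members, fell nearly as much.

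TRBV4 had a J2 share of 65.4%, 69.5% and 71.6% in wild type and 58.8%, 53.1% and 64.0% in Satb1-/-, again without overlap and with replicate 2 lowest. Its ratio went from 2.23 ± 0.316 to 1.45 ± 0.323, a log2 fold change of -0.64 (SE 0.19, limma adjusted p 0.0252). The call of TRBV4 rested on several libraries: the adjusted p by limma was 0.107 without wild-type replicate 3, 0.0895 without Satb1-/- replicate 1 and 0.124 without Satb1-/- replicate 2, and 0.0697 when TRBJ2-7 was left out of the J2 sum.

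TRBV2, TRBV3 and TRBV5 did not pass the test of the ratio. TRBV5 had J2 shares of 69.2%, 68.3% and 67.5% in wild type and 62.6%, 57.9% and 63.2% in Satb1-/-, without overlap (log2 fold change of the ratio -0.45, SE 0.17, limma adjusted p 0.0537). TRBV2 had 69.1%, 67.4% and 69.1% against 61.6%, 61.8% and 65.7%, also without overlap (-0.35, SE 0.17, limma adjusted p 0.126). TRBV3 was the member whose groups overlapped, with 64.7%, 70.1% and 70.4% in wild type and 62.7%, 56.9% and 67.2% in Satb1-/- (-0.39, SE 0.19, limma adjusted p 0.135). Without Satb1-/- replicate 3 all 5 members were called, among 11 of the 22 V segments. With the replicate block 8 of the 22 (36.4%) were called by limma, TRBV5 among them (adjusted p 0.0491). That fit gave each of the 22 V segments the same SE of 0.18. Its p-value for TRBV5 therefore rests on a pooled spread and not on that of TRBV5 alone.

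Among all 22 V segments 4 (18.2%) were called lower in the ratio and none (0%) higher, so that the members gave 2 of the 4 calls. An unadjusted p under 0.05 was reached by 8 of the 22 (36.4%), 3 of them members. Groups did not overlap, with Satb1-/- below, in 10 of the 22 (45.5%) and in 4 of the 5 members. The median log2 fold change was -0.45 over the members and -0.35 over all 22 V segments, and 20 of the 22 were below 0.

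**Figure D2:**
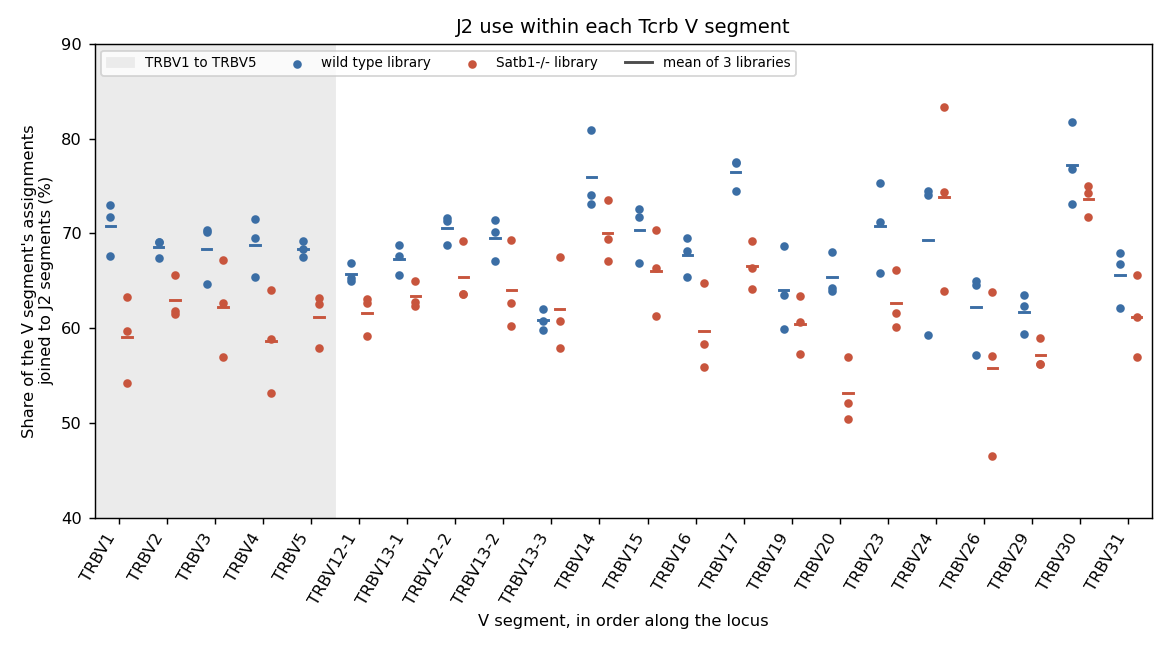
Share of each V segment's assignments joined to J2 segments, in percent (y axis, which does not start at 0), for all 22 V segments in their order along the locus (x axis). Points are libraries and short lines the means of 3; the shaded area holds TRBV1 to TRBV5. The members have similar wild-type means, between 68.3% and 70.8%, and Satb1-/- means between 58.7% and 63.0%.

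The members differed in how much of the library their J1-joined and J2-joined parts made up. For TRBV1 the J1-joined part was 1.06% ± 0.234 of all assignments in wild type and 1.41% ± 0.239 in Satb1-/-, and the J2-joined part 2.54% ± 0.312 and 2.03% ± 0.175, beside total shares of 3.60% and 3.44%. Both parts of TRBV1 overlapped between genotypes. For TRBV4 the J2-joined part was lower in every Satb1-/- library, at 3.08% ± 0.430 and 2.30% ± 0.392, while the J1-joined part overlapped at 1.40% ± 0.273 and 1.68% ± 0.661. TRBV2 was higher in both parts. Its J1-joined part read 1.33%, 1.32% and 1.21% in wild type against 2.51%, 2.63% and 1.63% in Satb1-/-. Its J2-joined part read 2.97%, 2.73% and 2.71% against 4.02%, 4.27% and 3.11%. Neither part of TRBV2 overlapped between genotypes. Such separation was not confined to the members. Of the other V segments TRBV17, TRBV20 and TRBV29 were higher without overlap in the J1-joined part. In the J2-joined part TRBV20 was higher, and TRBV12-2, TRBV13-1, TRBV14 and TRBV15 were lower, without overlap. TRBV3 and TRBV5 overlapped in both parts, with J2-joined parts of 4.96% ± 0.873 and 4.54% ± 1.14 for TRBV3 and 5.87% ± 1.54 and 5.43% ± 1.83 for TRBV5. These parts were not tested separately.

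The J2-to-J1 ratio of each V segment was also set against that of all other V segments of the same library. Averaged over both genotypes, 10 of the 22 V segments (45.5%) differed from the rest by limma, 6 higher (27.3%) and 4 lower (18.2%). None of the 5 members was among them: their log2 differences from the rest ran from -0.071 for TRBV4 to 0.055 for TRBV2, with 0 of 5 at an unadjusted p under 0.05 and a smallest adjusted p of 0.489. The SE of these differences was 0.072 to 0.078.

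The change between genotypes relative to the rest of the library was called in 0 of 22 V segments by limma (0%), with 4 (18.2%) at an unadjusted p under 0.05. TRBV1 was the member among those 4, with a further log2 change of -0.35 beyond that of the rest (SE 0.15, limma unadjusted p 0.0326, adjusted p 0.239). Its groups did not overlap, and it was itself the 1 of the 22 (4.55%) apart in that direction, while 2 were apart upward. TRBV20 (-0.35) and TRBV17 (-0.32), which are not members, changed by similar amounts with overlapping groups. Among the members TRBV4 followed at -0.24 (adjusted p 0.529 by limma), and TRBV2, TRBV3 and TRBV5 lay between -0.047 and 0.059. The pooled J2 share of the members went from 68.7% ± 1.26 to 61.1% ± 3.65 and that of the other 17 V segments from 67.9% ± 0.897 to 62.0% ± 2.15. A fall in J2 use particular to the members was therefore not detected.

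Averaged over the 6 libraries, TRBJ2-7 was the most used J segment of each member and TRBJ1-5 the least used. This order did not hold within each genotype: TRBJ1-1 exceeded TRBJ2-7 in the Satb1-/- means of TRBV4 (15.3% and 12.6%) and TRBV5 (12.05% and 11.98%). In the wild-type mean of TRBV5, TRBJ2-3 exceeded TRBJ2-7 (14.5% and 14.3%) and TRBJ1-2 and TRBJ1-5 were level at 3.12%. TRBJ2-7 took 16.3% of TRBV1, 15.5% of TRBV2, 15.6% of TRBV3, 15.2% of TRBV4 and 13.2% of TRBV5 as a mean of the 6 libraries, against 15.5% in the other V segments pooled. Its spread over single libraries was wide, from 11.8% to 20.5% in TRBV1 and from 8.85% to 20.4% in TRBV4. TRBJ1-5 took 3.14% of TRBV1, 4.60% of TRBV2, 2.78% of TRBV3, 3.60% of TRBV4 and 3.26% of TRBV5, against 3.03% in the others. The J segment used next most was TRBJ2-3 in TRBV1 (11.7%) and TRBV5 (12.3%) and TRBJ2-5 in TRBV2 (13.0%), TRBV3 (13.1%) and TRBV4 (12.9%). The next to least used was TRBJ1-2 in TRBV1 (5.21%) and TRBV5 (4.31%), TRBJ1-3 in TRBV2 (5.35%) and TRBV4 (5.26%), and TRBJ2-2 in TRBV3 (5.47%).

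**Figure D3:**
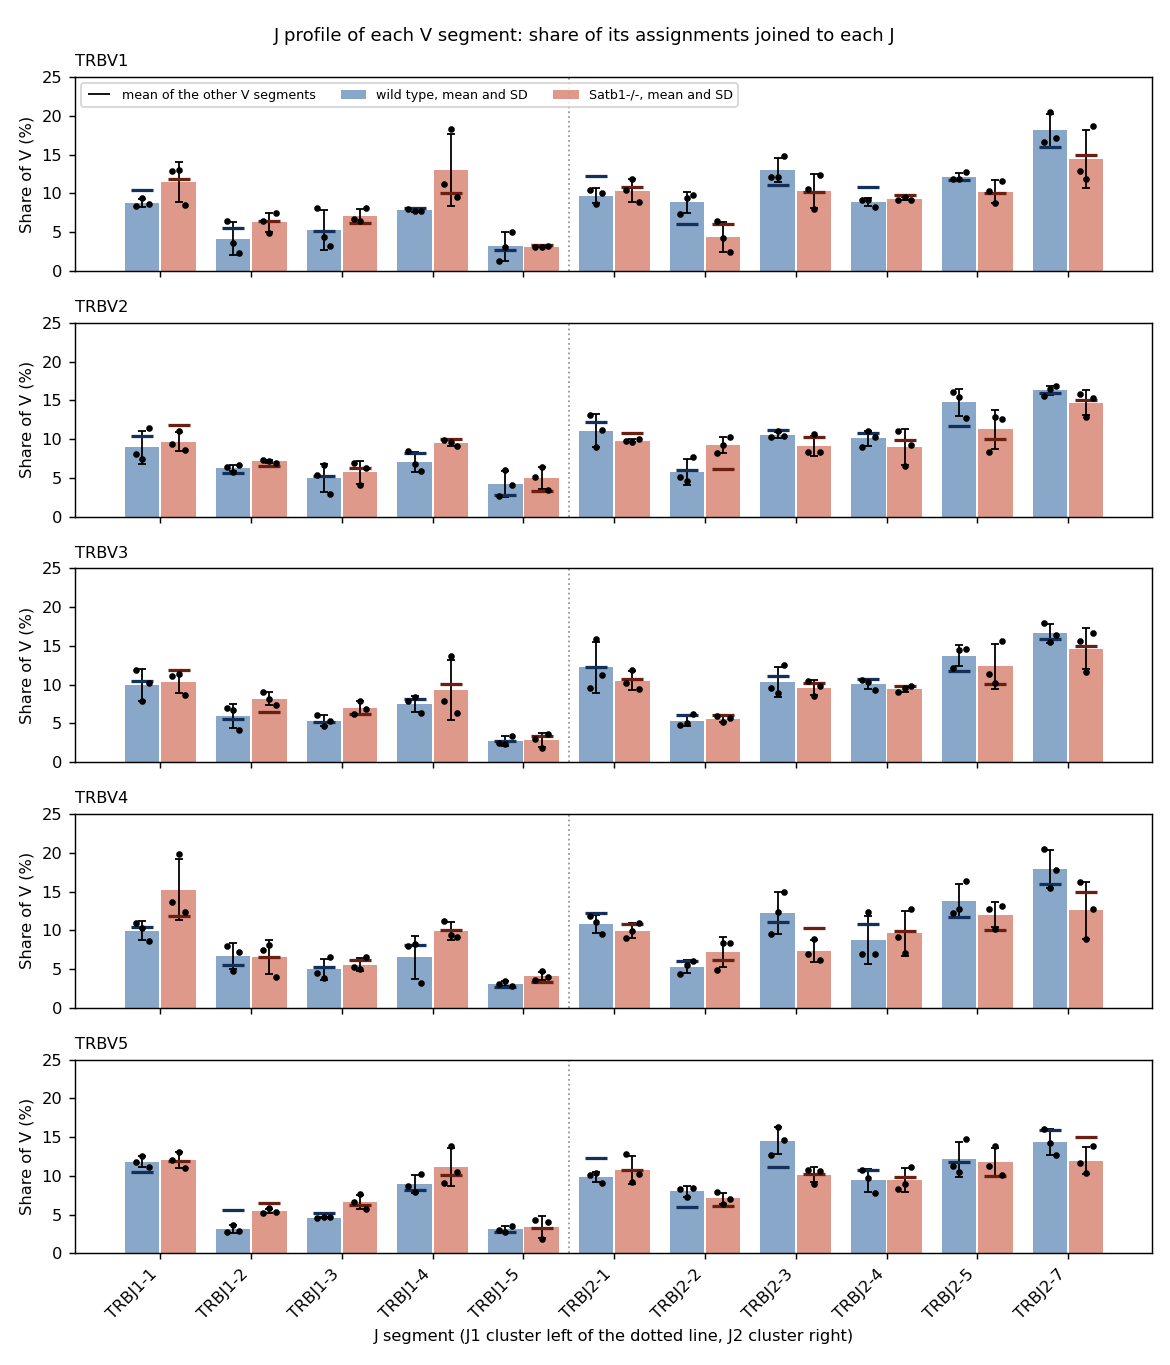
Share of each member's assignments joined to each of the 11 J segments, in percent (y axis), in one panel per V segment, with the J1 cluster left of the dotted line. Bars and error bars are mean and SD of 3 libraries, points are libraries in the order of their replicate number, and short lines are the means of the 17 other V segments pooled. TRBJ2-7 is high and TRBJ1-5 low in all 5 panels, and the TRBJ1-2 bars of TRBV5 (3.12% and 5.50%) lie under the lines of the other V segments.

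Likeness of the mean profiles was described by the total variation distance, the percent of assignments that would have to move to another J segment to make 2 profiles equal. The nearest V segment was TRBV13-2 for TRBV1 (3.44%) and for TRBV3 (3.68%), TRBV12-2 for TRBV2 (3.26%), TRBV2 for TRBV4 (3.31%) and TRBV1 for TRBV5 (4.94%). TRBV5 was thus the member farthest from its nearest neighbour. TRBV2 and TRBV5, identical in the last 12 bases printed above, stood 7.27% apart, and TRBV2 and TRBV4, which differ there in 1 base, 3.31%.

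TRBV5 was joined to TRBJ1-2 less often than the 2 shares would give. The expected pair share is the product of the V share and the J share of the library. Observed over expected came to 0.459, 0.712 and 0.591 for the wild-type libraries and to 0.743, 0.893 and 0.885 for the Satb1-/- libraries. All 6 libraries were below 1, and every wild-type library was below every Satb1-/- library. The mean over both genotypes was -0.52 on the log2 scale (SE 0.10, limma adjusted p 0.0435). Of 209 pairs tested 6 (2.87%) were called by limma, all lower than expected, and this was the 1 call among the 55 pairs of the members. An unadjusted p under 0.05 was reached by 37 of the 209 (17.7%) and by 6 of the 55. The call was lost when any 1 library was left out (adjusted p by limma from 0.101 to 0.164), without the filter on low pairs (0.0776) and with a variance trend (0.156). TRBV1 with TRBJ1-2 gave 0.856 as the mean ratio and TRBV2, TRBV3 and TRBV4 with TRBJ1-2 gave 1.12, 1.17 and 1.11, none of them called. Outside the members, TRBV15 (log2 -1.08, SE 0.20) and TRBV17 (-0.67, SE 0.14) were also called low with TRBJ1-2 (limma adjusted p 0.0435 and 0.0458). Both lay farther below expectation than TRBV5, so low joining to TRBJ1-2 was not particular to TRBV5.

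No pair of a V and a J segment was called between genotypes. For the share of each pair within its V segment, which sets aside changes of the V segment itself, limma called 0 of 209 pairs (0%), with 20 (9.57%) at an unadjusted p under 0.05, of which 8 were among the 55 pairs of the members. Groups did not overlap in 35 of the 209 (16.7%) and in 15 of the 55, of which 11 were higher and 4 lower in Satb1-/- (21, or 10%, and 14, or 6.7%, of all pairs). Among the members 24 of 25 J1 pairs had a fold change above 0 (median log2 0.30), the exception being TRBV4 with TRBJ1-2 (-0.053), and 22 of 30 J2 pairs lay below 0 (median -0.17). The other V segments had 52 of 66 tested J1 pairs above 0 (median 0.20) and 62 of 88 J2 pairs below 0 (median -0.13). The J shares of a V segment sum to 100%, so these directions are not independent of each other or of the ratio above.

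**Figure D4:**
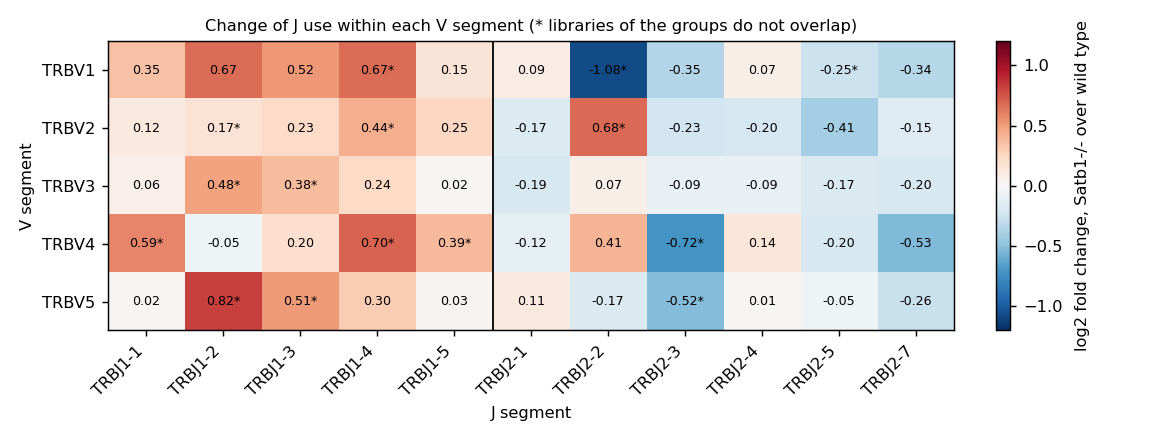
Log2 fold change, Satb1-/- over wild type, of the share of each J segment (columns) within each member (rows), on a colour scale centred at 0 (red higher, blue lower), with the value printed in each cell. An asterisk marks pairs whose 3 wild-type and 3 Satb1-/- libraries do not overlap, and no pair passed the adjusted threshold. J1 columns are red but for 1 cell, and among the J2 columns TRBJ2-2 runs from -1.08 in TRBV1 to 0.68 in TRBV2.

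The pairs described next were chosen after their values were seen, and each failed the adjusted test. TRBV5 with TRBJ1-2 took 2.76%, 3.73% and 2.85% of TRBV5 in wild type and 5.27%, 5.81% and 5.41% in Satb1-/- (3.12% ± 0.538 and 5.50% ± 0.281). These groups were apart by more than either spread (log2 fold change 0.82, SE 0.20, limma adjusted p 0.256). TRBV4 with TRBJ2-3 took 9.49%, 12.3% and 14.9% of TRBV4 in wild type and 6.89%, 8.85% and 6.18% in Satb1-/- (-0.72, SE 0.23, limma adjusted p 0.392).

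TRBJ2-2, also chosen after its values were seen, stood on opposite sides in TRBV1 and TRBV2. It took 7.33%, 9.41% and 9.79% of TRBV1 in wild type and 6.43%, 4.20% and 2.47% in Satb1-/-, all lower (log2 fold change -1.08, SE 0.31, limma adjusted p 0.370). It took 5.05%, 4.60% and 7.73% of TRBV2 in wild type and 8.20%, 9.25% and 10.2% in Satb1-/-, all higher (0.68, SE 0.24, limma adjusted p 0.392). In TRBV3, TRBV4 and TRBV5 the groups overlapped for TRBJ2-2, with log2 fold changes of 0.073, 0.41 and -0.17. The difference between TRBV1 and TRBV2 was not tested.

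As shares of the whole library, limma called 0 of 209 pairs (0%), with 25 (12%) at an unadjusted p under 0.05, of which 8 were among the 55 pairs of the members, and 0 of 209 with the replicate block. TRBV2 was above 0 with all 11 J segments and without overlap in 5 of the 11, whereas Satb1-/- stood above wild type without overlap in 21 of the 209 (10%). The largest fold change among the TRBV2 pairs was that with TRBJ2-2, which made up 0.217%, 0.186% and 0.303% of assignments in wild type and 0.536%, 0.638% and 0.483% in Satb1-/- (log2 fold change 1.23, SE 0.29, limma adjusted p 0.0980). It passed the threshold with a pseudocount 10 times larger (1.07, adjusted p 0.0499), with a variance trend (adjusted p 0.0431) and without wild-type replicate 3 (1.42, adjusted p 0.0313), all by limma. TRBV1 with TRBJ2-2 made up 0.289%, 0.364% and 0.294% in wild type and 0.239%, 0.146% and 0.0769% in Satb1-/- (-1.14, limma adjusted p 0.241). No member pair was at 0 in any library, and the smallest value above 0 of a library lay between 0.00570% and 0.0133%, so the lowest of these pair shares is a small number of such steps.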

How the data were processed

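Thymocyte total RNA was converted by 5' RACE and amplified with a constant-region primer, per the labels' protocols, and fastp is named without a version in the submitters' processing notes. Aligner, segment caller and genome build were not given in the sources used here. Molecular identifiers do not appear in the protocols. The authors deposited 1 table per library in percent of assignments, 22 V by 11 J segments, summing to 100, and the sources do not say whether reads or clonotypes were counted. Only the 6 Tcrb tables of the 24 were used. V segments and pairs with a mean of at least 0.1% entered limma 3.58.1 (R 4.3.3) on log2(percent + 0.00570), where 0.00570 is the lowest nonzero value found in any Tcrb library. All 22 V segments, 209 of 242 pairs and all 55 member pairs passed. Fits compared the 3 Satb1-/- with the 3 wild-type libraries without covariates. P-values were adjusted by Benjamini-Hochberg over all features of a family, with a call under 0.05. All values of each library were whole multiples of its smallest value within 0.01, but counts were not reconstructed. This step was 0.00657%, 0.00809% and 0.00890% in wild-type replicates 1 to 3. In Satb1-/- replicates 1 to 3 it was 0.00570%, 0.0133% and 0.0110%. If a step is 1 assignment, a larger step means a lower depth. Satb1-/- replicate 2, lowest in the J2 share of TRBV1 and TRBV4, had the largest step. No 2 libraries were identical.

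Residuals of libraries of equal replicate number correlated at 0.767, 0.610 and 0.489 for V shares and at 0.375, 0.250 and 0.324 for pair shares. The main fits left this pairing out, and fits with the number as a block were run beside them. The blocked value is given where it changes a call and for the share of TRBV4. The members and lists were chosen with earlier results of these data known. The text names all 5 members, the 2 most and 2 least used J segments of each, member pairs that were called, and the most alike V segments. Genes were matched by symbol to GENCODE M21 (22 of 22 V and 11 of 11 J segments), with Python 3.11.15 and Biopython 1.88, and the scripts were tested on simulated data. Alternatives covered the pseudocount, the filter, a variance trend, the block, centred log-ratios, leaving out TRBJ2-7 and leaving out each library.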

Additional observations from a re-analysis of the deposited data

How the results depend on the processing

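The number of V segments called on share, 0 as reported, was 1 with the stricter filter (a mean of at least 1%), 3 with a variance trend, 3 with the replicate block, 2 with centred log-ratios and 0 to 1 when 1 library was left out. Pairs called on share, 0 as reported, were 2 with the 10 times larger pseudocount, 2 with a variance trend and 0 to 3 when 1 library was left out, and pairs called on J use within a V segment, 0 as reported, were 0 to 1. V segments called on the J2-to-J1 ratio, 4 as reported, were 7 with the larger pseudocount, 8 with the stricter filter, 7 with a variance trend, 8 with the replicate block and 3 to 11 when 1 library was left out, the 11 being without Satb1-/- replicate 3. On the ratio relative to the rest of the library, the calls between genotypes, 0 as reported, were 2, 1 and 1 with the larger pseudocount, the stricter filter and a variance trend and 0 to 1 when 1 library was left out, and those averaged over both genotypes, 10 as reported, were 7 to 9. Pairs called against expectation, 6 as reported, were 0 without a filter, 0 with a variance trend and 0 to 2 when 1 library was left out. For these shifts the cause was not tested.

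Direction was not stable for members near 0. TRBV3 went from -0.0024 to 0.0023 in share with centred log-ratios. When 1 library was left out, the log2 fold change of share ran from -0.19 to 0.010 for TRBV1, -0.25 to 0.18 for TRBV3 and -0.20 to 0.24 for TRBV5, and the J2-to-J1 ratio relative to the rest from -0.0044 to 0.12 for TRBV2, -0.075 to 0.12 for TRBV3 and -0.11 to 0.025 for TRBV5. The ratio itself stayed below 0 in all 5 members under every alternative run. TRBV1 ran from -0.87 to -0.60 there and TRBV4 from -0.80 to -0.47 without 1 library. The summed share of the members differed by 1.69 percentage points as reported and by 0.434 to 2.74 without 1 library. For J use within a V segment and for the J2-to-J1 ratio, libraries of equal number did not deviate together (residual correlations 0.126, 0.0596 and 0.153, and 0.0535, 0.170 and -0.0691), so the block there rests on a shared number only. There were 3 libraries a group, no counts or depth are given and no molecular identifiers are named, and the smallest difference that could have been called was not tested.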
